A study of Mus musculus with 14 samples.

Results

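The genes described here are *Sfmbt2*, *Gab1*, *Slc38a4*, *Jade1* (named *Phf17* on the array) and *Smoc1*, 5 autosomal genes known to carry a noncanonical imprint that depends on H3K27me3, a repressive histone mark. Their probes were found by gene name on the array, with no use of the measured signals. The genes themselves were chosen with earlier results of these data known. Of the 41174 gene probes, 8 carry one of these names. These 8 stand for 5 of the 19512 genes with a symbol in the gene table. *Sfmbt2* has 3 probes, *Slc38a4* has 2, and *Gab1*, *Jade1* and *Smoc1* have 1 each.

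Gene expression was measured on one-colour oligonucleotide arrays in mouse blastocysts at embryonic day 4.0, after amplification of the RNA. Of the 14 arrays, 4 held fusion clones, in which a cumulus cell had been fused with an enucleated oocyte, and 4 held injection clones, in which the cumulus cell nucleus had been injected. The remaining arrays held control embryos from in vitro fertilization (IVF), 3 male and 3 female. All clones were labelled female, so the female IVF embryos were the sex-matched controls. Recipient oocytes, and the background of the nuclear donors, were BDF1, the F1 cross of C57BL/6N and DBA/2. The study's methods name BDF1 for the IVF controls too, and the labels give them no strain. The study's methods describe nuclear donors heterozygous for an *Xist* knockout, and the labels of these blastocysts give no donor genotype. All embryos were cultured in KSOM medium. The extraction text of the labels speaks of tissues of single embryos, whereas the sample labels name blastocysts. Nothing states whether replicates came from separate culture sessions, so the tests measure the spread between these arrays.

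Most imprinted genes are silenced on one parental allele by DNA methylation that was laid down in the germ line. The 5 genes described here belong to a smaller class, in which the oocyte deposits H3K27me3 through Polycomb repressive complex 2 (PRC2) and the paternal allele is the one transcribed in the preimplantation embryo. The mark is lost from most embryonic lineages after implantation, whereas paternal expression of several of these genes persists in extraembryonic tissues. The question put to the arrays was whether their total transcript levels were higher in clones than in IVF embryos. The probes read both alleles together, so allelic expression was not measured.

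The start regions of these genes are shown because the maternal mark lies over the start of such genes and because the genes differ in CG content there. Each sequence is the 250 bases before the most upstream annotated start, from RefSeq on GRCm38.p6, in the direction of transcription, with every CG in capitals. The windows are chr2:10370201-10370450 (plus strand) for *Sfmbt2*, chr8:80880520-80880769 (minus strand) for *Gab1*, chr15:97055957-97056206 (minus strand) for *Slc38a4* and chr3:41555484-41555733 (plus strand) for *Jade1*; 4 of the 5 genes had a window in the table.
Sfmbt2: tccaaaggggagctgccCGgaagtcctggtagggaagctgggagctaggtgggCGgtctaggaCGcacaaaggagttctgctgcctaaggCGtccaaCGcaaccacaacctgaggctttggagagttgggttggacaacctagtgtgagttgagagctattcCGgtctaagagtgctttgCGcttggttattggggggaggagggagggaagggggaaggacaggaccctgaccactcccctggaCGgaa
Gab1: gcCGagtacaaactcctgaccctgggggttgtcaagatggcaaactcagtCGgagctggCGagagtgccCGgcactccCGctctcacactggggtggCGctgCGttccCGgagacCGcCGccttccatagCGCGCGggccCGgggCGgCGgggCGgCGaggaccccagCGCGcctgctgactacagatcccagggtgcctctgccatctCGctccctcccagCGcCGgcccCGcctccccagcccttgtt
Slc38a4: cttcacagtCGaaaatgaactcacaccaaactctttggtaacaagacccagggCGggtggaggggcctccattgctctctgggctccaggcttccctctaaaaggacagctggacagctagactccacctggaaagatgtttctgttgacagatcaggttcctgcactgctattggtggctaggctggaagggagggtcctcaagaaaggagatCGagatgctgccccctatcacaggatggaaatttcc
Jade1: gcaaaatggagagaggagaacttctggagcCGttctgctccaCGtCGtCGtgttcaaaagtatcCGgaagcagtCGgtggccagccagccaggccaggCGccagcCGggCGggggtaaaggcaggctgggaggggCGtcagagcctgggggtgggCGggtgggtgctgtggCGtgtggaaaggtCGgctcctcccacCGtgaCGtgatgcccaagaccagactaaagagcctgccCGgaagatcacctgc
*Gab1* had 24 CG in its window, as many as or more than 89.7% of the 27025 genes with a window, and *Jade1* had 16. *Sfmbt2* had 8, near the median of 6 over all genes, and *Slc38a4* had 3, a number that 70.4% of genes reached or passed. At least 1 CG was present in 91.7% of all such windows. The genes therefore ranged from poor to rich in CG at this start, and the other annotated starts of *Jade1* had between 6 and 35.

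The 4 groups were hybridised to 4 separate slides, and clones and IVF embryos were also scanned and processed with different scanners and software versions, so group, slide and scanner cannot be told apart. Between 57.4% and 65.2% of gene spots were well above background per array. Fusion clone 4 had the lowest of these shares and, with a log2 signal of 11.8, the lowest *Xist* level of any clone, against a median of 14.33 in fusion clones and a range of 12.25 to 13.5 in female and 4.0 to 6.6 in male embryos. Injection clones had *Xist* levels of 13.91 to 15.47, all above every female embryo. *Xist*, the RNA that silences one X chromosome, is shown because its paternal expression rests on the same kind of maternal mark. Markers of epiblast, trophectoderm and primitive endoderm were well above background in every group, on at least 1 array for each of 8, 11 and 10 genes, other than *Foxa2* in fusion clones.

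In all clones against all IVF embryos, 4 of the 5 genes were higher at an adjusted p below 0.05: *Jade1*, *Gab1*, *Sfmbt2* and *Slc38a4*. The differences were 1.48, 1.45, 1.12 and 0.71 on the log2 scale. *Smoc1* was 0.94 higher and did not pass. None was lower. These counts are read by the brightest probe of each gene, and 9.15% of the 35010 probes tested passed in the upward direction in the same fit, 13.1% in the downward and 22.2% in either. The brightest probes of the 5 genes were well above background on all 14 arrays. In a fit kept to probes well above background on every array of at least 1 group, 14.6% passed upward and 20.1% downward. The median difference was 1.12 over the 5 genes and -0.06 over all probes. This contrast set the mean of both clone groups against the mean of both IVF groups in one limma fit of 4 group means. The count stayed at 4 or fell to 3 in every alternative tried, and the call for *Slc38a4* was the only one that was lost.

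**Figure D1:**
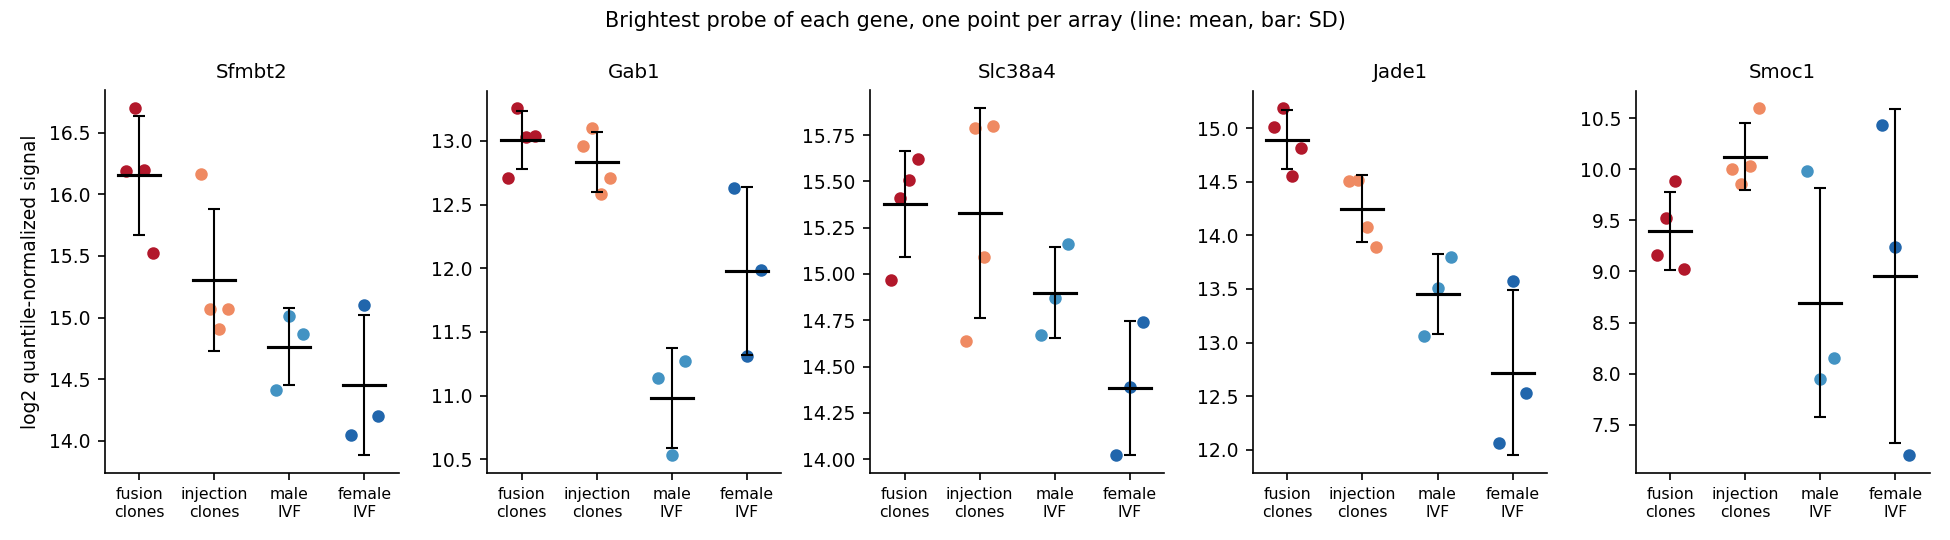
Log2 quantile-normalized signal of the brightest probe of each gene on each of the 14 arrays, with points for arrays, lines for group means and bars for SD; the vertical axes differ and do not start at 0. All 8 clones lay above all 6 IVF embryos for Jade1, and the groups overlapped for the other 4 genes.

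*Jade1*, a PHD finger protein that acts as a scaffold of the HBO1 histone acetyltransferase complex, was the one gene of the 5 in which every clone lay above every IVF embryo. Over all probes tested, 2.25% separated in this way and direction. Its log2 signals were 15.01, 15.19, 14.55 and 14.82 in fusion clones. In injection clones they were 14.51, 14.52, 14.08 and 13.89. Male embryos had 13.06, 13.51 and 13.8 and female embryos 12.06, 13.57 and 12.53, so the lowest clone was an injection clone and the highest control a male embryo. The difference over all arrays was 1.48 with an SE of 0.23, a 2.79-fold higher signal (limma, adjusted p = 0.00154). Group means fell from 14.89 ± 0.27 (SD, n = 4) in fusion clones to 14.25 ± 0.31 (SD, n = 4) in injection clones, 13.46 ± 0.37 (SD, n = 3) in male embryos and 12.72 ± 0.77 (SD, n = 3) in female embryos. No pair of neighbours in this order passed the adjusted threshold.

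*Sfmbt2*, a Polycomb group protein with MBT domains that is required for maintenance of the trophoblast, had its highest signals in fusion clones. On its brightest probe they were 16.19, 16.7, 16.2 and 15.52. Injection clones had 16.16, 15.07, 14.91 and 15.07, so that 1 injection clone sat among the fusion clones and the other 3 at the level of the highest controls. The IVF embryos had 14.41, 15.01 and 14.87 (male) and 14.05, 15.1 and 14.2 (female). Fusion clones overlapped with neither control group, and injection clones overlapped with both. Over all probes tested, 10.4% had every fusion clone above every female embryo, and 10.2% above every male embryo. Over all arrays the difference was 1.12 with an SE of 0.26, a 2.17-fold higher signal (limma, adjusted p = 0.011), and 5 of 8 clones lay above every IVF embryo. The group means were 16.15 ± 0.48 (SD, n = 4), 15.3 ± 0.58 (SD, n = 4), 14.76 ± 0.32 (SD, n = 3) and 14.45 ± 0.57 (SD, n = 3) for fusion clones, injection clones, male and female embryos. Neighbours in this order did not differ past the adjusted threshold.

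*Gab1*, a docking protein that links receptor tyrosine kinases to downstream signalling and is needed for placental growth, was at a narrow range of levels in the clones. The log2 signals were 12.71, 13.26, 13.03 and 13.04 in fusion clones. Injection clones had 12.96, 13.1, 12.58 and 12.71. Male embryos had 11.14, 10.53 and 11.27 and female embryos 12.63, 11.31 and 11.99, so the single overlap was between the highest female embryo and the lowest injection clone. Over all arrays *Gab1* was 1.45 higher in clones with an SE of 0.21, a 2.72-fold higher signal (limma, adjusted p = 0.000913). The means were 13.01 ± 0.23 (SD, n = 4) in fusion clones, 12.84 ± 0.23 (SD, n = 4) in injection clones, 11.97 ± 0.66 (SD, n = 3) in female embryos and 10.98 ± 0.39 (SD, n = 3) in male embryos. Here the male embryos were the lowest group, unlike for *Jade1*, *Sfmbt2* and *Slc38a4*. All 3 male embryos lay below all 3 female embryos, which 6.81% of probes did. The difference was -0.99 with an SE of 0.42 and did not pass (limma, adjusted p = 0.649).

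*Slc38a4*, a sodium-coupled transporter of neutral amino acids that is abundant in the placenta, differed least of the 4 genes that passed. Fusion clones had log2 signals of 14.97, 15.41, 15.51 and 15.62 on the brightest probe. Injection clones had 14.64, 15.79, 15.09 and 15.8. Male embryos had 14.67, 14.87 and 15.16 and female embryos 14.02, 14.39 and 14.74, so the injection clones reached from the control range to the highest signals of all. The means were 15.38 ± 0.28 (SD, n = 4) in fusion clones, 15.33 ± 0.57 (SD, n = 4) in injection clones, 14.9 ± 0.25 (SD, n = 3) in male embryos and 14.38 ± 0.36 (SD, n = 3) in female embryos. Over all arrays the difference was 0.71 with an SE of 0.21, a 1.64-fold higher signal (limma, adjusted p = 0.0322), and 5 of 8 clones lay above every IVF embryo. The call was lost with 75th percentile scaling (adjusted p = 0.0658), with the deposited log2 values (adjusted p = 0.0693) and without any 1 of 9 of the 14 arrays.

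*Smoc1*, a secreted calcium-binding matrix protein that modulates BMP signalling, had a wider spread in the controls than any difference between group means. Its log2 signals were 9.98, 7.95 and 8.15 in male and 10.43, 9.24 and 7.2 in female embryos. Fusion clones had 9.16, 9.52, 9.88 and 9.02, and the 4 injection clones lay between 9.86 and 10.6. The clones thus lay within or just above the upper part of the control range. The difference over all arrays was 0.94 with an SE of 0.47 (limma, adjusted p = 0.191), and its 95% confidence interval ran from -0.10 to 1.97. Means in order were 10.12 ± 0.33 (SD, n = 4) in injection clones, 9.4 ± 0.38 (SD, n = 4) in fusion clones, 8.96 ± 1.63 (SD, n = 3) in female embryos and 8.69 ± 1.12 (SD, n = 3) in male embryos, and no neighbours differed past the adjusted threshold.

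Against the sex-matched female embryos, 2 of the 5 genes were higher in fusion clones at an adjusted p below 0.05, *Jade1* and *Sfmbt2*, where 4.32% of 32458 probes were. *Jade1* was 2.17 higher with an SE of 0.38, 4.5-fold (limma, adjusted p = 0.0237), and *Sfmbt2* 1.70 higher with an SE of 0.37, 3.25-fold (limma, adjusted p = 0.0404). *Gab1* was 1.03 higher (adjusted p = 0.103) and *Slc38a4* 0.996 (adjusted p = 0.0565), and *Smoc1* differed by 0.44 (adjusted p = 0.709). By the threshold of the study's methods, read here as an unadjusted p below 0.05 with at least a 2-fold change, 3 genes were higher (*Jade1*, *Sfmbt2* and *Gab1*), where 8.46% of probes were. The 4 fusion clones lay above the 3 female embryos for 4 of the 5 genes, all but *Smoc1*, against 10.4% of probes. Without fusion clone 1, 2 or 3, or without female embryo 3, none of the 5 passed the adjusted threshold, with *Jade1* between 2.07 and 2.29; without fusion clone 4 only *Sfmbt2* passed, at 1.91. Over all probes, 1.97% to 2.72% passed upward in these fits with 1 array left out. *Jade1* passed in 13 and *Sfmbt2* in 9 of the 19 alternatives tried for this comparison.

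In injection clones against female embryos, all 5 genes had a positive difference and none passed the adjusted threshold, where 1.53% of 32840 probes did in that direction. The differences were 1.53 for *Jade1* (adjusted p = 0.0838), 1.17 for *Smoc1* (adjusted p = 0.406), 0.95 for *Slc38a4* (adjusted p = 0.186), 0.86 for *Gab1* (adjusted p = 0.19) and 0.85 for *Sfmbt2* (adjusted p = 0.274), all by limma. At an unadjusted p below 0.05, 3 of the 5 were higher, against 9.78% of probes, and with the 2-fold limit of the methods 1 was, *Jade1*, against 6.93% of probes. *Jade1* was also the 1 gene whose injection clones and female embryos did not overlap, as 8.39% of probes did not in that direction. Without female embryo 2, *Jade1* passed at 1.95 (limma, adjusted p = 0.0387). The 2 comparisons share the female embryos, so the positive signs in both are not independent of each other.

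The male embryos, on another slide, are a further control for these autosomal genes. In fusion clones 3 of the 5 genes were higher at an adjusted p below 0.05 (3.3% of 32018 probes): *Gab1* by 2.03 (adjusted p = 0.0125), *Jade1* by 1.43 (adjusted p = 0.0288) and *Sfmbt2* by 1.39 (adjusted p = 0.0494), by limma. In injection clones 1 was (2.29% of 32590 probes), *Gab1*, by 1.86 (limma, adjusted p = 0.0204). *Jade1* was 0.79 higher in injection clones and *Smoc1* 1.43, and neither passed. The *Sfmbt2* call was lost in 13 of the 18 alternatives tried and that of *Jade1* in 8; over the 18, the adjusted p of *Sfmbt2* ran from 0.0313 to 0.153. Without fusion clone 1, 2 or 3 or male embryo 1 or 2, the count in fusion clones was 1; without injection clone 1, 2 or 3 the count in injection clones was 0, and without male embryo 1 it was 2. Over all probes, 0.886% to 2.09% passed upward in those fits of fusion clones and 0.375% to 1.33% in those of injection clones. The largest differences of *Jade1*, *Sfmbt2* and *Slc38a4* were against female and the largest of *Gab1* against male embryos.

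**Figure D2:**
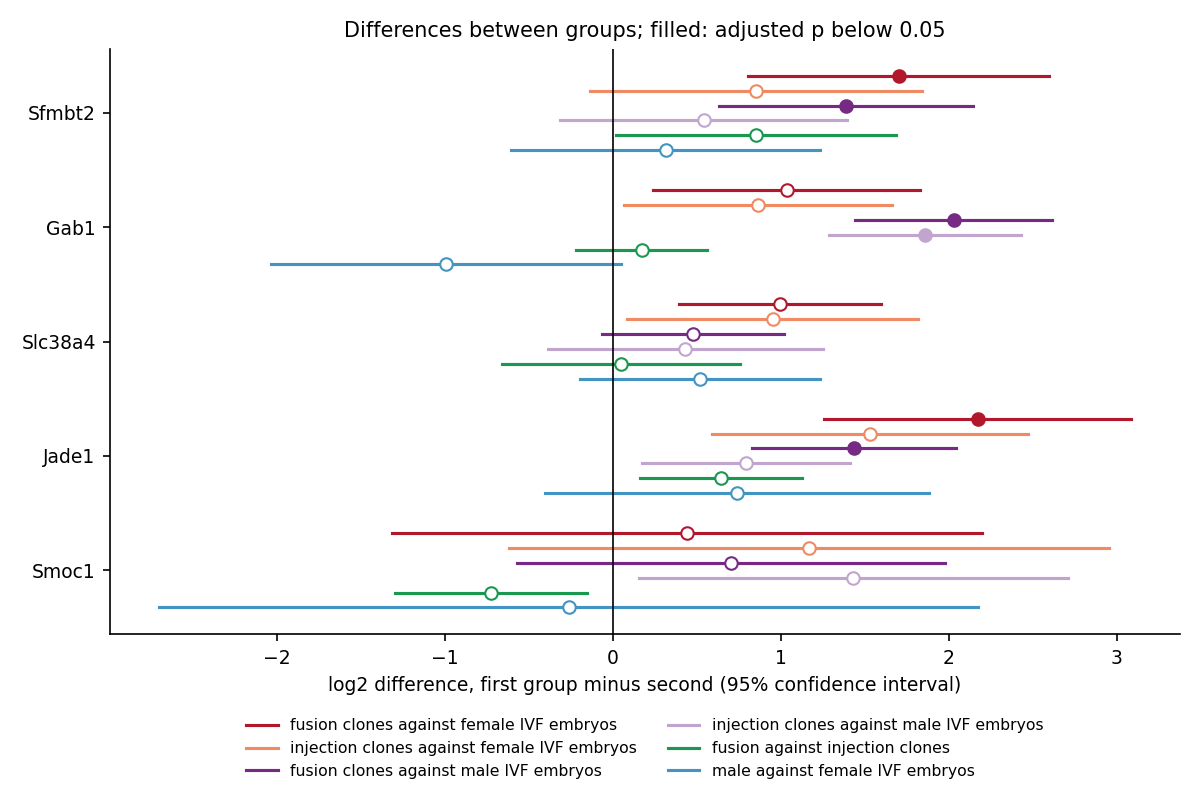
Log2 difference of the brightest probe of each gene in 6 comparisons, with 95% confidence intervals from limma; filled points passed an adjusted p of 0.05. All 5 genes lay to the right of 0 in each of the 4 comparisons of clones with IVF embryos, and the male against female intervals all include 0.

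The transfer methods were compared directly. None of the 5 genes passed the adjusted threshold in fusion against injection clones, nor did any probe, 0.0% of 32303 (limma), although 1993 probes had an unadjusted p below 0.05. *Jade1* was 0.64 higher in fusion clones (unadjusted p = 0.0163, adjusted p = 0.717, limma), and its 4 fusion clones all lay above its 4 injection clones, as 1.48% of probes did. *Sfmbt2* was 0.85 higher in fusion clones (unadjusted p = 0.0471, adjusted p = 0.806, limma). *Smoc1* was -0.73, lower in fusion clones (unadjusted p = 0.0195, adjusted p = 0.742, limma). The intervals for the other 2 ran from -0.22 to 0.56 for *Gab1* and from -0.66 to 0.76 for *Slc38a4*, and differences of up to those sizes remain possible. In male against female embryos no gene of the 5 passed, where 0.0593% of 32046 probes did, and the absolute differences ran from 0.27 for *Smoc1* to 0.99 for *Gab1*.

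Genes with more than 1 probe gave a check of direction within the gene. The second probe of *Slc38a4*, A_52_P12403, whose coordinates in the files span 2.7 kb and so cross an intron, gave a larger difference than the brightest one. It was 1.43 higher in clones with an SE of 0.32 (limma, adjusted p = 0.00829), and in fusion clones against female embryos 2.03 higher, 4.09-fold (limma, adjusted p = 0.0216), where the brightest probe had not passed. Its signals were 9.66, 10.59, 10.86 and 10.56 in fusion clones and 8.75, 9.4, 10.03 and 10.73 in injection clones. The IVF embryos had 9.47, 8.71 and 8.5 (male) and 8.77, 8.38 and 8.0 (female), so all fusion clones lay above all controls and 2 injection clones did not. Fusion clones lay wholly above female embryos for 10.4% of probes and wholly above male embryos for 10.2%.

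The other 2 probes of *Sfmbt2* were dim. The first, A_52_P457403, starts 4.0 kb from the brightest probe in the files' coordinates and was well above background on 7 of 8 clone arrays and 1 of 6 IVF arrays. None of the 3 male embryos was above background on this probe. The fitted signal was 3.55-fold higher in fusion clones and 2.48-fold higher in injection clones than in male embryos. Neither passed, with adjusted p values of 0.141 and 0.3 (limma). The male mean of 4.01 lay at the floor, as did fusion clone 4 at 4.0, so the size of these differences depends on the floor. The second, A_51_P412438, spans 33.3 kb and was above background on 8 of 8 clone and 3 of 6 IVF arrays, with a difference of 1.25 over all arrays (limma, adjusted p = 0.0561). On the log2 scale its signals ran from 4.62 to 6.86 in clones and from the floor of 4.0 to 6.03 in IVF embryos. The IVF arrays, and not the clone arrays, held negative processed signals, and software version also went with group. In the above-background counts of these 2 dim probes, expression and processing therefore cannot be told apart. All 8 probes of the 5 genes had positive differences in each comparison of clones with IVF embryos. Over all arrays 5 of the 8 passed, where 9.15% of all probes passed upward and 44.9% had positive differences. Probes of the same gene on the same arrays are not independent of each other.

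**Figure D3:**
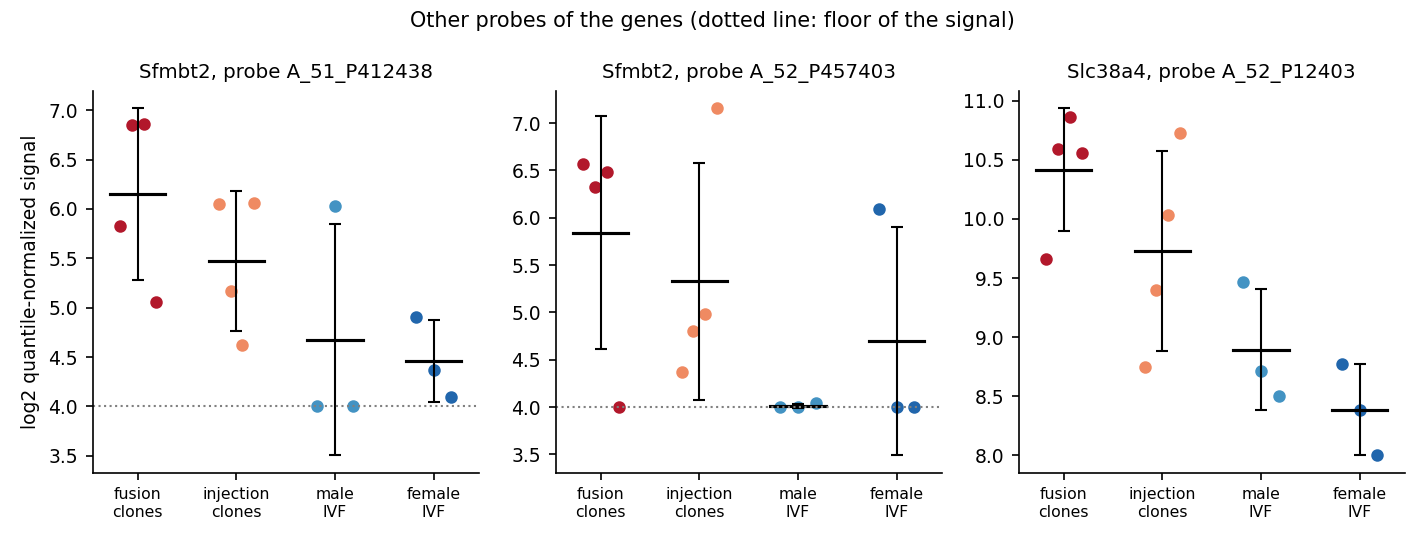
Log2 quantile-normalized signal of the probes that are not the brightest of their gene, 2 of Sfmbt2 and 1 of Slc38a4, with points for arrays, lines for means and bars for SD; axes do not start at 0 and the dotted line marks the floor. Clone means lay above both IVF means on each probe. On each Sfmbt2 probe 4 clones lay above all IVF embryos, and on the Slc38a4 probe 6 did. The other clones overlapped with the IVF embryos.

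Levels of *Sfmbt2* and *Jade1* followed each other from array to array. Pearson's r between their brightest probes was 0.89 over the 14 arrays, which fall into clone and IVF groups, and 0.69 after each group's mean was taken off. It was 0.78 within the 8 clones and 0.93 within the 6 IVF embryos. Values within clones and within IVF embryos still hold the differences between fusion and injection clones and between the sexes. The other 9 pairs had r between -0.44 and 0.31 after the group means were taken off, between -0.84 (*Jade1* and *Smoc1*) and 0.62 (*Gab1* and *Jade1*) within the clones, and between -0.84 (*Gab1* and *Jade1*) and 0.69 (*Slc38a4* and *Jade1*) within the IVF embryos. The arrays share slides within groups, and these values are descriptions without a test.

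**Figure D4:**
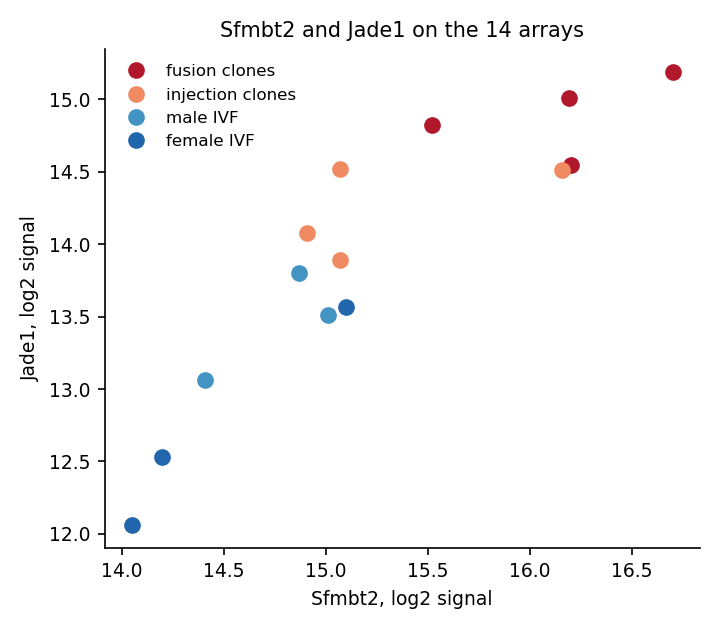
Log2 signal of Jade1 against that of Sfmbt2 (brightest probes) on the 14 arrays, coloured by group; axes do not start at 0. The injection clone with the highest Sfmbt2 signal, 16.16, had a Jade1 signal of 14.51, close to that of the other injection clones.

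The genes whose pattern over the 14 arrays was most like each member were found among 15764 other probes at most, all above background on every array. For *Jade1* they were *Dag1* (r = 0.97) and *Ppp6r3* (r = 0.96), and for *Gab1* they were *Gusb* and *Csnk1g1* (both r = 0.95). *Sfmbt2* was most like *Kdm5a* (r = 0.91), an H3K4 demethylase, and *Ppp4r3b* (r = 0.90). *Slc38a4* was most like *Mb21d2* (r = 0.91) and *Lrrfip1* (r = 0.90), and *Smoc1* most like *Parpbp* (r = 0.94) and *Dnaaf5* (r = 0.92). With the group means taken off, these r values were between 0.69 and 0.93.

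Other genes set beside the 5 came from lists of related genes. Of 12 other candidates for the same kind of imprint that were tested, 2 were higher in fusion clones against female embryos, where 4.32% of probes were: *Epas1*, a hypoxia-inducible transcription factor, by 2.44 (limma, adjusted p = 0.0244), and *Gramd1b*, a sterol transport protein, by 1.98 (limma, adjusted p = 0.0247). Of the 10 tested in injection clones none passed. Over all arrays 4 of 12 were higher and none lower, with a median of 0.47: *Epas1* by 1.99, *Gramd1b* by 1.95, and *Bbx* by 1.18 and *Mbnl2* by 0.88, the last 2 named after their values were seen. The share higher over all probes was 9.15%, as given above.

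Of 9 paralogues of the 5 genes tested, 2 were higher over all arrays and none lower, where 9.15% of probes were higher and 13.1% lower, and the median was 0.13. *Sfmbt1*, the relative of *Sfmbt2*, was 1.44 higher in injection clones against female embryos (limma, adjusted p = 0.0491) and 1.21 higher over all arrays (limma, adjusted p = 0.00207). *Slc38a1*, named after its values were seen, was 0.81 higher (limma, adjusted p = 0.0403). Of the 10 genes that are nearest to the 5 on either side within 1 Mb, 1 was higher and 1 lower over all arrays, against the same shares of probes, and the median was -0.03. Both were named after their values were seen: *Itih5*, 113.9 kb from *Sfmbt2*, at 1.57 (limma, adjusted p = 0.0197), and *Slc8a3*, 11.5 kb from *Smoc1*, at -2.25 (limma, adjusted p = 0.0139). In injection clones against female embryos 1 neighbour passed, *Amigo2*, 188.1 kb from *Slc38a4*. Its signal was 3.21-fold higher in injection clones (limma, adjusted p = 0.0324). No female embryo was well above background for it, so the size of this difference depends on the floor. *Sclt1*, 9.8 kb from *Jade1*, differed by -0.11 over all arrays and *Smarca5*, 25.0 kb from *Gab1*, by -0.05; neither passed, and both were chosen after their values were seen.

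Of 12 genes of PRC2 and the H3K27 demethylases, 2 were higher and 1 lower over all arrays, with a median of 0.02. These 3 of 12 are close to the 22.2% of all probes called in either direction. *Suz12*, a core PRC2 subunit, was 0.77 higher in fusion clones against female embryos (limma, adjusted p = 0.0319) and 0.67 higher over all arrays (limma, adjusted p = 0.00232). *Phf19*, a PRC2 accessory subunit, was -1.30 and -1.51 in the same comparisons (limma, adjusted p = 0.0318 and 0.0131). *Aebp2*, a further accessory subunit named after its values were seen, was 1.19 higher over all arrays, and the methyltransferase *Ezh2*, chosen in the same way, differed by -0.02.

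Paternally expressed genes whose imprint is oocyte DNA methylation are set beside the 5 because they are expressed from the same parental allele. None of the 17 tested was higher over all arrays and 1 was lower, with a median of 0.22, where 9.15% of probes were higher and 13.1% lower. *Magel2* was the 1 that was lower, also against female embryos in fusion and injection clones (limma, adjusted p = 0.0277 and 0.0278). Its mean log2 signal was 5.68 in female embryos, 4.2 in fusion clones and 4.0, the floor, in injection clones, with 2 of 8 clone arrays above background, so the size of the difference is set by the floor. The difference between this list and the 5 genes was not tested.

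**Figure D5:**
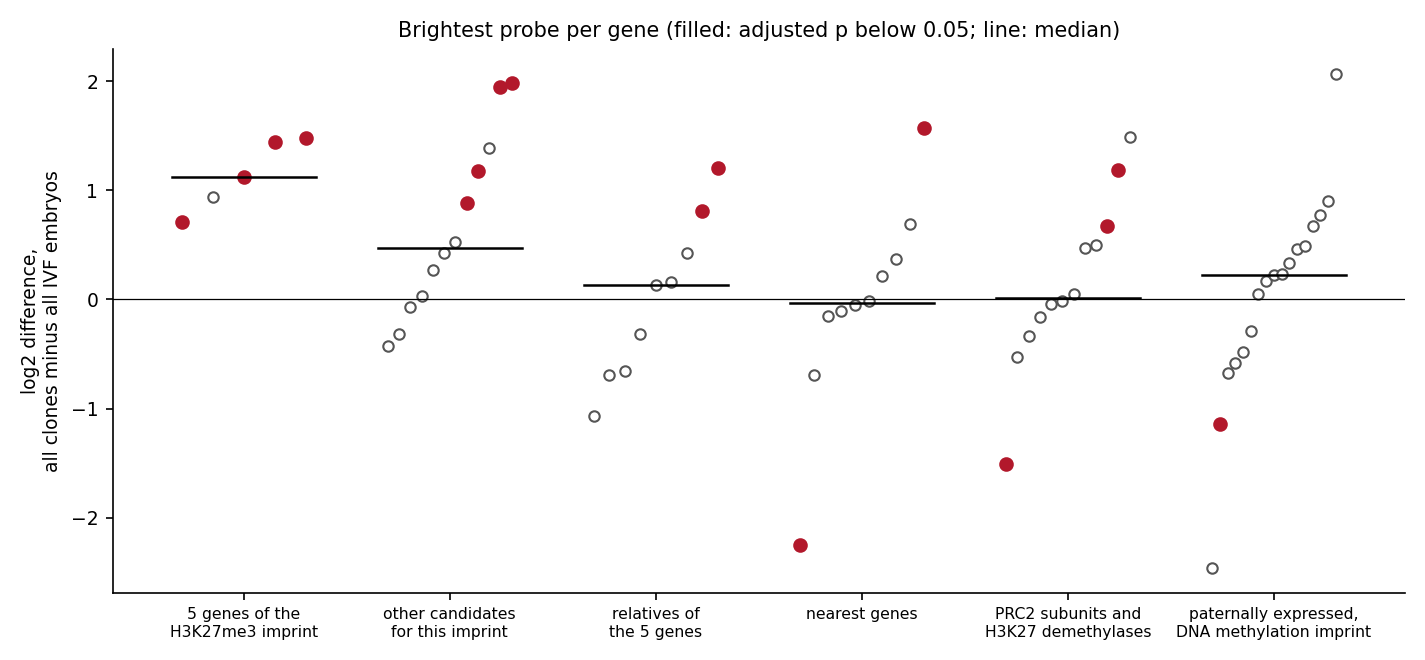
Log2 difference of all clones minus all IVF embryos for the brightest probe of each gene in 6 lists; filled points passed an adjusted p of 0.05 and lines are list medians. The median was 1.12 for the 5 genes and between -0.03 and 0.47 for the other lists.

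Cell type markers also differed between clones and IVF embryos. Over all arrays 5 of 10 trophectoderm and 6 of 10 primitive endoderm genes were lower and none higher, 2 of 8 epiblast genes were higher and none lower, and of 10 cumulus cell genes 1 was higher and 2 lower. Over all probes 9.15% were higher and 13.1% lower. The median difference was -2.42 for primitive endoderm, -0.3 for trophectoderm, -0.29 for epiblast and -0.63 for cumulus cell markers, against -0.06 over all probes. Sums of signals, given next, are set mostly by the brightest markers. The log2 summed signal of trophectoderm markers was 19.43 to 19.98 in clones and 19.93 to 20.17 in IVF embryos, and that of primitive endoderm markers 17.2 to 17.96 and 17.59 to 18.31. Summed epiblast markers were at 16.62 to 17.2 and 16.43 to 16.73. For cumulus cell markers the sums were 10.14 to 11.43 in fusion and 10.74 to 11.33 in injection clones. They were 10.03 to 11.11 in male and 9.83 to 10.1 in female embryos, so all clones lay above all female embryos. Of these 11 genes, 6 were not well above background on any fusion clone array and 5 on any injection clone array. The same held for 2 in male and 4 in female embryos. In whole embryos, fewer cells of a type and less RNA per cell cannot be told apart, and the part of these shifts in the levels of the 5 genes was not tested.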

How the data were processed

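The analysis used 14 one-colour arrays of blastocysts, 8 of clones (4 by fusion and 4 by injection) and 6 of IVF embryos (3 of each sex). The authors deposited scanner output of Agilent Feature Extraction (10.5.1 in the submitters' processing notes, 10.5.1.1 and 9.5.3.1 in the file headers), whose background-subtracted intensity (processed signal) was used here. The deposited log2 table held the same signals, shifted per array and centred per probe (column medians -0.22 to 0.16), and served as an alternative.

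Gene spots, with outlier-marked spots left out, were quantile-normalized as in the study's methods, set to a floor of 16 and taken to log2, and spots of a probe were averaged. A probe was tested in a comparison if the scanner software marked it well above background on 1 or more of the arrays entering it, and the test was run with limma 3.58.1 in R 4.3.3 (lmFit and eBayes), with Benjamini-Hochberg adjustment over all probes tested. The brightest probe over the 14 arrays stood for a gene. A second call rule, a moderated test with a 2-fold limit, came from the study's methods, which do not say whether p was adjusted; it was read as an unadjusted p below 0.05. Group differences are on the log2 scale, and the floor makes them smaller for dim probes. Array signals have no read depth, so the number of arrays limits the precision. The IVF arrays, and not the clone arrays, held negative processed signals, between 6790 and 9981 per array.

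The gene names are those of the array design, and 79.5% of probes matched a RefSeq symbol. All probes of the 5 genes are named. Genes of other lists are named where they passed against female embryos (at most 3 a list), for each of the 5 genes the 2 most alike in Pearson's r, and *Xist*. Others are marked where they occur. The genes and lists were chosen with earlier results of these data known. Scripts were tested on simulated data.

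Alternatives were other scalings, background correction (normexp, offset 50), floors of 1 and 32, other filters, one fit of all groups, a variance trend, the mean of all probes of a gene, both IVF sexes as control, the replicate number as a block, and each array left out. Male and female embryos of the same number deviated together (r of 0.146, 0.172 and 0.171 over 17478 probes). Between fusion and injection clones of the same number r was -0.005, -0.075, 0.174 and -0.046. The main fits used no pairing, also for male against female embryos, and only the alternative with the replicate block did.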

Additional observations from a re-analysis of the deposited data

Results flagged for a closer look

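A pair of values lay far from the rest of their group, by Dixon's test at the 95% level. In injection clone 1 the brightest *Sfmbt2* probe had a log2 signal of 16.16, against 14.91 to 15.07 in the other 3 injection clones. In fusion clone 4 the dim *Sfmbt2* probe A_52_P457403 was at the floor, 4.0, against 6.32 to 6.57 in the other 3 fusion clones. Of 16 groups of 4 tested over the 8 probes, chance would mark about 0.8, since about 1 in 20 groups is marked by chance.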

How the results depend on the processing

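Over all arrays, *Jade1*, *Gab1* and *Sfmbt2* were called higher in all 24 alternatives, *Slc38a4* in 13 and *Smoc1* in none, and all 5 differences stayed positive. The count of 4 ranged from 3 to 4 with 1 array left out. By the methods' threshold 3 genes were higher, where 8.32% of probes were, and 2 to 4 with 1 array left out. With the deposited values the median of all probes was 0.13 and 56.0% of calls were higher, against -0.06 and 41.1%.

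For fusion clones against female embryos, the count of 2 was 1 with the deposited values, with a floor of 1 and with no filter on dim probes, 3 with normexp, with probes above background on every array of a group, with all groups in one fit and with a variance trend, 4 with both IVF sexes as control, and between 0 and 2 with 1 array left out (by the methods' threshold 2 to 4). The share of all probes called higher moved as well, from 4.32% in the main fit. It was 4.89% with the deposited values, 3.71% with a floor of 1 and 2.55% with no filter. With normexp it was 5.12% and with probes above background on every array of a group 8.55%. With one fit it was 5.72%, with a variance trend 4.9% and with both sexes 5.56%. In injection clones against female embryos the count of 0 was 1 with all groups in one fit (4.15% of probes) and with both sexes as control (3.74%). It was 0 to 1 with 1 array left out. By the methods' threshold that count of 1 was 2 with normexp, with the mean of all probes and with both sexes as control, and 1 to 3 with 1 array left out. Against male embryos the count of 3 in fusion clones was 2, with *Sfmbt2* lost, with 75th percentile scaling, with floors of 1 and 32, with no filter and with the mean of all probes, 1 with the deposited values and 1 to 2 with 1 array left out, and in injection clones 0 to 2. Over all probes, the share higher in fusion clones against male embryos was 3.3% in the main fit. It was 2.97% with 75th percentile scaling, 2.05% and 3.05% with floors of 1 and 32, and 1.7% with no filter. With the mean of all probes it was 2.93% and with the deposited values 2.46%. For fusion against injection clones and male against female embryos the count was 0 with any 1 array left out.

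With the replicate number as a block, the count for fusion clones was 0 against female and 0 against male embryos. For injection clones it was 0 against male embryos. The clones' numbers only share a label. In each of these fits 0.0% of all probes passed in either direction, so these counts are not particular to the 5 genes. *Jade1* was 2.20 higher in fusion clones than in female embryos (limma, adjusted p = 0.137). In the same fit the count by the methods' threshold was 2 for fusion clones against female embryos. The block changed no other count of the 5 genes, including that of male against female embryos, whose main fit used no pairing. The cause of these changes was not tested.

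Signs turned for uncalled differences only: *Sfmbt2*, male against female, with the mean of all probes (-0.05); *Smoc1*, fusion clones against female embryos, without female embryo 3 (-0.44, up to 1.18 without female embryo 1); *Slc38a4*, fusion against injection clones, without fusion clone 4 or injection clone 3 (-0.03) or injection clone 1 (-0.18, up to 0.20 without injection clone 2 or 4); and *Smoc1*, male against female, without male embryo 2 (0.11) or 3 (0.01) or female embryo 1 (0.47), and down to -1.14 without female embryo 3. Signal over background limits the 2 dim *Sfmbt2* probes.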
